A study of Arabidopsis thaliana with 4 samples.

Results

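The 22 genes described here are the rows of a table of differentially expressed genes whose symbol carries the name of a transcription factor family, namely WRKY, MYB, ERF, NAC and a digit, bHLH, bZIP, DREB, or HB and a digit. They make up 22 of the 1984 genes in that table. Their mRNA was sequenced from whole 10-day-old seedlings of Arabidopsis thaliana, of the ndx1-4 mutant and of the Col-0 wild type, with 2 libraries each. ndx1-4 is a T-DNA insertion allele of NODULIN HOMEOBOX (NDX), a plant-specific homeobox regulator linked to heterochromatin, and the comparison asks which transcripts change when NDX is disrupted. The mutant is represented by a single insertion line. Levels are given in FPKM, a measure of reads per length of transcript and amount of sequence, which carries no read depth. The table holds only genes that the study had called different between these same 4 libraries, so every gene in it had already passed a test of this contrast.

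NDX itself (AT4G03090) had 0.98 and 1.0 FPKM in ndx1-4 seedlings, against 5.08 and 4.96 FPKM in Col-0 seedlings. The libraries carry the genotype of their labels for this gene, with a limma difference of -1.60 ± 0.10 (SE) on the log2(FPKM + 1) scale and an adjusted p = 4.76e-06.

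Transcription factors bind short DNA motifs and set how often nearby genes are transcribed, and plant genomes hold large families of them. WRKY proteins carry a zinc finger that reads the W-box and are best known for immunity and stress responses. MYB proteins of the R2R3 class control branches of specialised metabolism such as flavonoids and glucosinolates, as well as barrier polymers of the cell wall. NAC proteins act in senescence, stress and wood or vessel development, and bHLH proteins bind E-box motifs or, where they lack the basic region, bind and disarm other bHLH proteins.

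The label of the set was checked against annotation. The WRKY symbol found 8 genes, MYB 5, NAC 4, bHLH 3, and HB with a digit 2, while ERF, bZIP and DREB found 0. Neither of the 2 HB genes is a transcription factor: AHB1 (AT2G16060) is hemoglobin 1, and LHB1B1 (AT2G34430) is a chlorophyll-binding subunit of the light-harvesting antenna of photosystem II. The WRKY signature heptapeptide was encoded in all 8 WRKY genes and in 0 of the other 14, beside 69 of 27444 protein-coding genes in the genome. WRKY25 and WRKY33 encode it 2 times, the mark of WRKY proteins with a pair of domains. The coding stretches of the 2 WRKY genes that fell most and the 2 that rose most in ndx1-4 are shown to identify them by the domain that defines the family, 5′ to 3′ on the coding strand, with the 21 bases of the heptapeptide in capitals (TAIR10.1, RefSeq).
WRKY18, chr4:15384307-15384345, + strand: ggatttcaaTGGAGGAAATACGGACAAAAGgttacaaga
WRKY70, chr3:20909751-20909789, - strand: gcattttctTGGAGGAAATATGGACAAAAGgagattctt
WRKY9, chr1:25544924-25544962, + strand: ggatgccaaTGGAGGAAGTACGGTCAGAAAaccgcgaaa
WRKY28, chr4:10062140-10062178, + strand: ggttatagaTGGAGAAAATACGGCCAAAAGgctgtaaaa
The capitalised run differed in bases between all 8 WRKY genes, with 8 distinct runs among 8. Of the 22 genes, 17 share no 50-base stretch, the read length used, with the transcript of another gene.

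WRKY proteins bind the W-box, so the core letters TTGAC were searched on both strands in the 250 bases before the annotated start of each gene. The window held at least 1 core in 6 of the 8 WRKY genes (75.0%) and at least 2 in 3 of them, WRKY45 with 3 cores and WRKY25 and WRKY33 with 2 each. The windows of WRKY25 and WRKY45 overlap a neighbouring annotated gene. At least 1 core was present in 44.9% of the windows of 27443 protein-coding genes and at least 2 in 14.1%, and 9 of the 22 genes (40.9%) had at least 1. The upstream windows of a pair of WRKY genes that fell and of 1 that rose are shown, since genes of both directions carry cores, each free of any annotated neighbouring gene, with the cores in capitals on whichever strand they were found (GTCAA is the core on the opposite strand).
WRKY33, lower in ndx1-4, chr2:16107985-16108234, + strand: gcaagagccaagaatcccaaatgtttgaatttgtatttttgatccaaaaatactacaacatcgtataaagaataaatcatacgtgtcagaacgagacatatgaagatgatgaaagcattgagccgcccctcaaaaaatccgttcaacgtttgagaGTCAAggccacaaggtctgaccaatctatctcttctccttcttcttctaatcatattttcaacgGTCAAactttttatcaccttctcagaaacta
WRKY70, lower in ndx1-4, chr3:20910624-20910873, - strand: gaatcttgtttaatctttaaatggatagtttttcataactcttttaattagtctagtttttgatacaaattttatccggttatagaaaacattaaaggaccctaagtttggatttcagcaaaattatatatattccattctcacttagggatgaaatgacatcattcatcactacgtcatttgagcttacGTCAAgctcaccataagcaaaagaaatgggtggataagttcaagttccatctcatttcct
WRKY28, higher in ndx1-4, chr4:10060964-10061213, + strand: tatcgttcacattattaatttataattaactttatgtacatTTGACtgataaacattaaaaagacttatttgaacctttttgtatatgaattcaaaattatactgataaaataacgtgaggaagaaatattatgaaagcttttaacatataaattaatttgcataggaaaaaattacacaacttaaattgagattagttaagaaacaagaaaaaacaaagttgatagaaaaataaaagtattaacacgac
The W-box core stood in WRKY windows of both directions: 3 of the 5 genes that fell (WRKY25, WRKY33 and WRKY70) and all 3 that rose (WRKY9, WRKY28 and WRKY45) held it. The G-box CACGTG, a site of bHLH and bZIP proteins, was found in the windows of BHLH134 and WRKY45 alone among the 22, beside 6.49% of all coding genes.

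Each genotype difference below is the limma difference of ndx1-4 minus Col-0 on the log2(FPKM + 1) scale, called at an adjusted p under 0.01 over all 1984 genes. All 22 genes passed, as did 98.9% of the table, and the 2 genotypes did not overlap in any of the 22, as in 99.9% of the table. Because the table was selected on this contrast, neither count says anything about these families. 10 genes were higher in ndx1-4 seedlings (45.5%, against 43.0% of the table) and 12 were lower (54.5%, against 55.9% of the table), and among the 20 transcription factors the split was 10 to 10. The median absolute difference was 0.68 for the 22 genes and 0.45 for the table, and 14 of the 22 (63.6%) differed by at least 1.5-fold on this scale, against 38.5% of the table. By the plain ratio of mean FPKM 8 of 22 (36.4%) reached 2-fold, against 24.5% of the table. On the log2(FPKM + 1) scale, which compresses low levels, 3 of 22 (13.6%) did, against 18.6% of the table, and with a pseudocount of 0.1 it was 7 of 22 (31.8%), against 24.0%. Rescaling the libraries to a common median ratio over the listed genes added 0.19 to the median log2 difference, and the table then held 869 higher and 612 lower calls. Its factors came from 1900 of these preselected genes alone, so it cannot show which scaling is right. After rescaling, LHB1B1, anac081, WRKY33 and bHLH121 were no longer called. The 22 genes were expressed at a median of 11.1 FPKM, against 29.6 FPKM for the table, with means over the 4 libraries between 1.83 FPKM (MYB111) and 3805 FPKM (LHB1B1). Sizes of change were not compared at equal expression, so the larger median difference is no result about these families either.

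**Figure D1:**
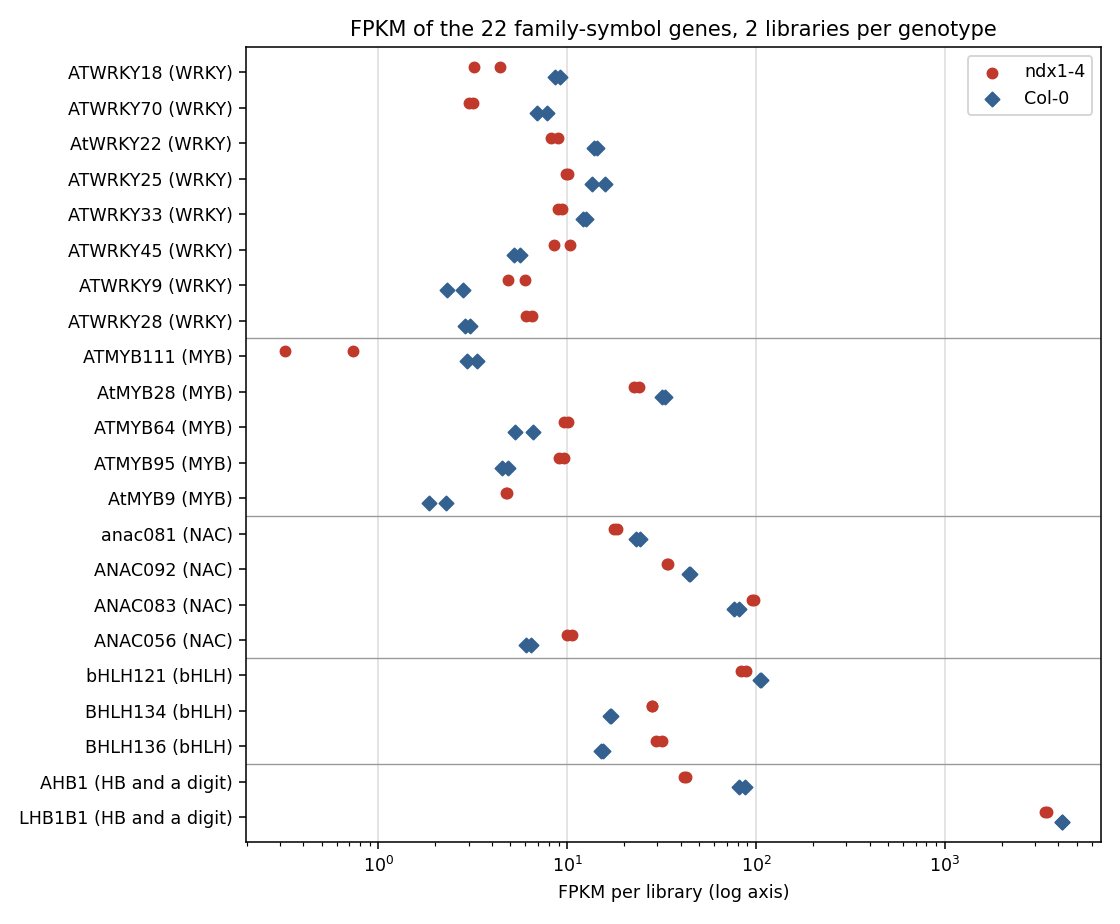
FPKM of each of the 22 genes in each library on a log axis, with ndx1-4 as red circles and Col-0 as blue diamonds, 2 libraries per genotype, grouped by family. In every gene the 2 genotypes are separate, and the gap between them exceeds the gap between replicates.

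In each of the 22 genes the gap between the nearest ndx1-4 and Col-0 libraries was larger than the wider of the 2 gaps between replicates. That was so in 1939 of the 1984 listed genes (97.7%).

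The WRKY family split into 5 genes that fell and 3 that rose in ndx1-4. WRKY18 (AT4G31800, chromosome 4, 15382777 to 15385100), a pathogen-induced regulator of basal and salicylic acid-dependent defence, had 4.40 and 3.19 FPKM in ndx1-4 seedlings, against 8.59 and 9.20 FPKM in Col-0 seedlings. Both mutant libraries lay far below both wild-type libraries, and the difference was -1.06 ± 0.13 (SE, adjusted p = 0.000126). WRKY70 (AT3G56400, chromosome 3, 20908711 to 20910623), a node between salicylic acid and jasmonate signalling, had 3.16 and 3.0 FPKM in ndx1-4 seedlings, against 6.95 and 7.84 FPKM in Col-0 seedlings. The genotypes did not overlap, the mutant stood at 41.6% of the wild type, and the difference was -1.04 ± 0.10 (adjusted p = 3.46e-05).

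The 3 WRKY genes that rose were at lower levels in the wild type than the 5 that fell. WRKY28 (AT4G18170, chromosome 4, 10061214 to 10062893), an activator of the salicylic acid synthesis gene ICS1, had 6.03 and 6.51 FPKM in ndx1-4 seedlings, against 2.89 and 3.04 FPKM in Col-0 seedlings. It stood 2.11-fold higher in the mutant, with no overlap and a difference of 0.87 ± 0.09 (adjusted p = 6.76e-05). WRKY9 (AT1G68150, chromosome 1, 25543949 to 25545791) had 4.86 and 6.0 FPKM in ndx1-4 seedlings, against 2.30 and 2.82 FPKM in Col-0 seedlings. The mutant libraries of WRKY9 differed from each other by 1.14 FPKM and from the nearest wild-type library by 2.04 FPKM, and the difference was 0.85 ± 0.13 (adjusted p = 0.000337). WRKY45 (AT3G01970), an activator of the phosphate transporter gene PHT1;1, had 8.55 and 10.38 FPKM in ndx1-4 seedlings, against 5.24 and 5.59 FPKM in Col-0 seedlings, again without overlap, at 1.75-fold (difference 0.70 ± 0.11).

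The other 3 WRKY genes that fell did so by less. WRKY22 (AT4G01250), which acts downstream of flagellin perception, had 8.20 and 8.95 FPKM in ndx1-4 seedlings, against 14.38 and 13.91 FPKM in Col-0 seedlings (difference -0.66 ± 0.08). WRKY25 (AT2G30250), a heat and defence regulator, had 9.88 and 10.07 FPKM in ndx1-4 seedlings, against 15.92 and 13.55 FPKM in Col-0 seedlings (difference -0.52 ± 0.09). WRKY33 (AT2G38470), an activator of camalexin synthesis and the close relative of WRKY25, had 8.89 and 9.40 FPKM in ndx1-4 seedlings, against 12.17 and 12.54 FPKM in Col-0 seedlings (difference -0.40 ± 0.07). None of the 3 overlapped between genotypes, and the Col-0 libraries of WRKY25 were the widest apart, by 2.37 FPKM. Of 16 genes of salicylic acid and camalexin defence, the pathways these WRKY proteins act in, 0 are in the table, and they were not analysed here. The table holds 1984 of 38095 annotated genes, so the absence of so short a list says nothing about its pathway.

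**Figure D2:**
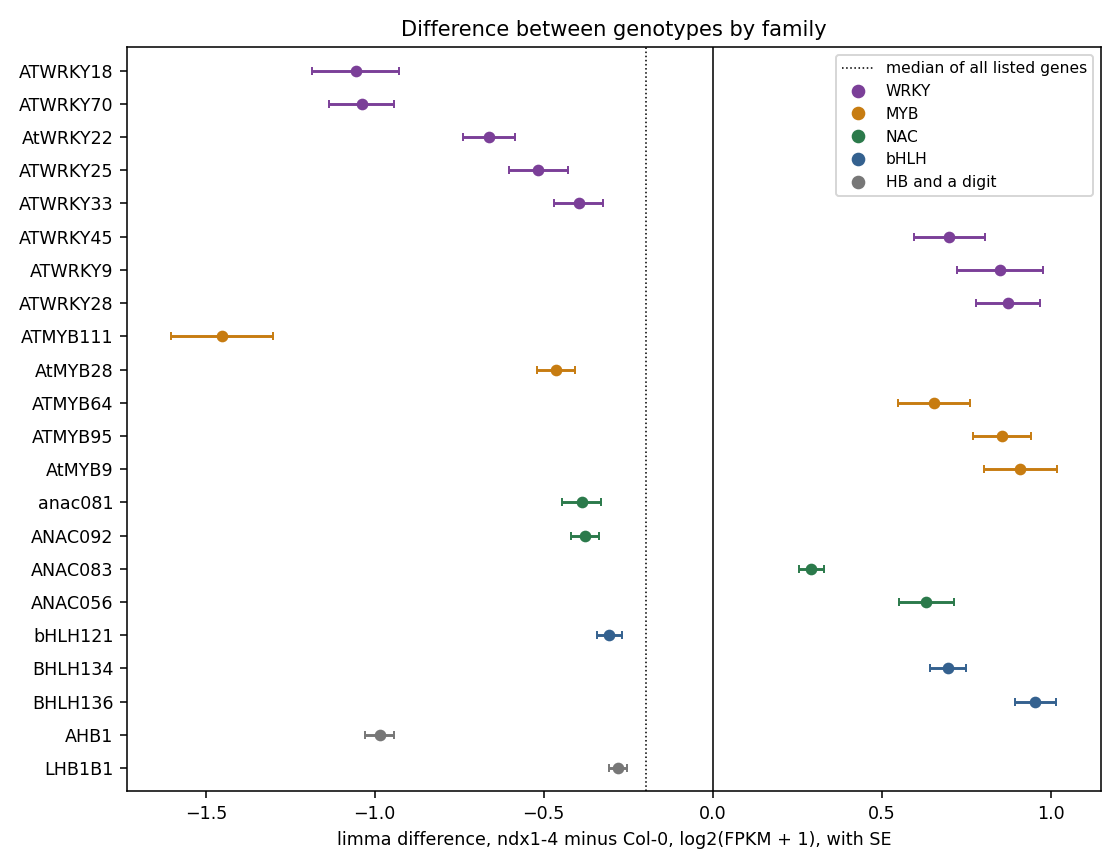
limma difference between genotypes (ndx1-4 minus Col-0) on the log2(FPKM + 1) scale with its SE for each of the 22 genes, coloured by family, with 2 libraries per genotype. The dotted line marks the median of the 1984 listed genes, -0.20, and every family except HB and a digit has genes on both sides of 0.

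Among the MYB genes the largest change of the whole set was a fall. MYB111 (AT5G49330, chromosome 5, 19998823 to 20001572), an activator of flavonol synthesis genes, had 0.32 and 0.73 FPKM in ndx1-4 seedlings, against 3.31 and 2.96 FPKM in Col-0 seedlings. The mutant mean was 16.7% of the wild-type mean, the genotypes did not overlap, and the difference was -1.45 ± 0.15 (SE, adjusted p = 5.7e-05). MYB28 (AT5G61420, chromosome 5, 24689069 to 24691187), a master regulator of aliphatic glucosinolate synthesis and the most abundant MYB gene of the set, had 24.07 and 22.50 FPKM in ndx1-4 seedlings, against 33.08 and 31.90 FPKM in Col-0 seedlings. It was also lower without overlap, at 71.7% of the wild-type mean and a difference of -0.46 ± 0.06 (adjusted p = 0.000116).

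Genes of the pathways in which these 2 MYB proteins are known to regulate a branch were in the table too. Any link between the change of either MYB gene and that of the pathway genes was not tested. Of 15 genes of flavonoid and anthocyanin synthesis, 8 were listed, and 8 fell and 0 rose in ndx1-4, beside 55.9% of the table lower, with a median difference of -0.98, against -0.20 for the table. After rescaling 7 of the 8 were still called lower. TT4, which encodes chalcone synthase, the entry enzyme of the pathway, had 10.89 and 11.49 FPKM in ndx1-4 seedlings, against 56.66 and 57.69 FPKM in Col-0 seedlings (difference -2.26 ± 0.05). FLS1, the flavonol synthase gene, had 2.02 and 1.88 FPKM in ndx1-4 seedlings, against 10.09 and 12.57 FPKM in Col-0 seedlings (difference -2.06 ± 0.12). Neither gene overlapped between genotypes, and TT19, a glutathione transferase needed for anthocyanin storage, fell as well (difference -1.26 ± 0.11).

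Of 19 genes of glucosinolate synthesis, 9 were listed, and 8 fell and 1 rose, beside 55.9% of the table lower, with a median difference of -0.39, against -0.20 for the table. After rescaling 5 were called lower and 1 higher, and the median was -0.20. MAM3, a chain-elongation enzyme of the aliphatic branch, had 21.47 and 21.93 FPKM in ndx1-4 seedlings, against 43.29 and 44.05 FPKM in Col-0 seedlings (difference -0.98 ± 0.05). CYP79F2, which starts the core pathway of the same branch, had 5.67 and 5.36 FPKM in ndx1-4 seedlings, against 10.01 and 9.82 FPKM in Col-0 seedlings (difference -0.74 ± 0.08). The list mixes branches, so its counts are not counts of MYB28 targets. CYP79B3, of the tryptophan-derived indole branch, fell by 0.57. Of the aliphatic genes named here, MAM3 and CYP79F2 fell, and MAM1, a neighbour of MAM3 in that branch, rose. MAM1 had 83.58 and 84.93 FPKM in ndx1-4 seedlings, against 71.97 and 70.86 FPKM in Col-0 seedlings. These lists were chosen with results of the same libraries known, and genes outside the table were not analysed here.

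**Figure D3:**
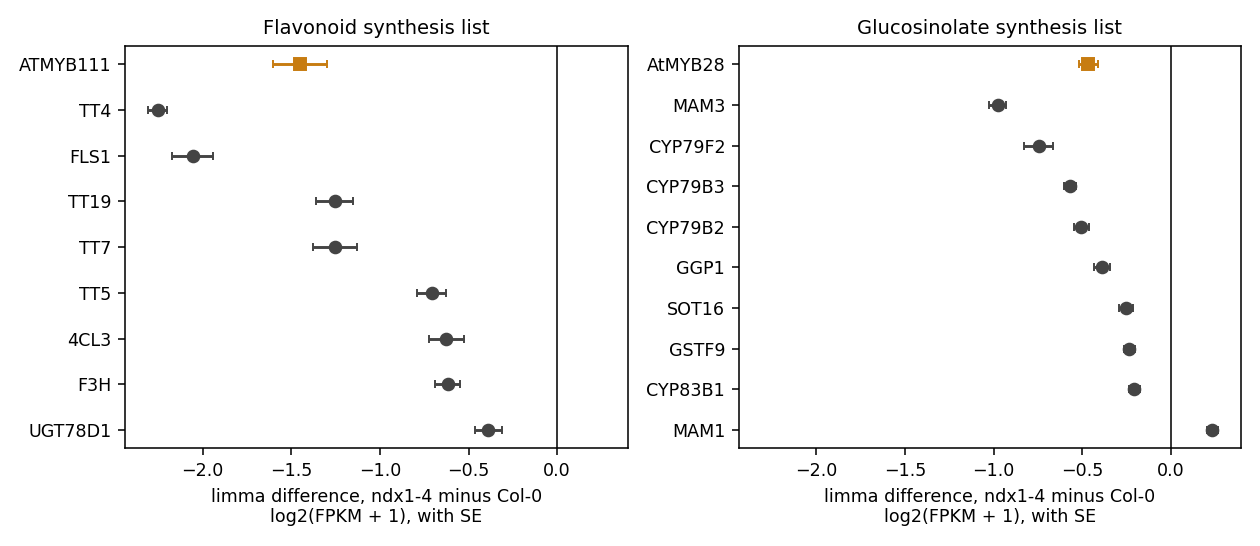
limma difference between genotypes (ndx1-4 minus Col-0) on the log2(FPKM + 1) scale with its SE, for MYB111 beside the 8 listed genes of flavonoid synthesis (left) and MYB28 beside the 9 listed genes of glucosinolate synthesis (right), 2 libraries per genotype. All 8 flavonoid genes are below 0, and MAM1 is the only glucosinolate gene above 0. The glucosinolate list also covers the indole branch.

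The other 3 MYB genes rose. MYB95 (AT1G74430, chromosome 1, 27975168 to 27977434) had 9.62 and 9.00 FPKM in ndx1-4 seedlings, against 4.85 and 4.54 FPKM in Col-0 seedlings, without overlap (difference 0.86 ± 0.09, adjusted p = 4.96e-05). MYB9 (AT5G16770, chromosome 5, 5514717 to 5517153), a regulator of suberin in the seed coat, had 4.77 and 4.73 FPKM in ndx1-4 seedlings, against 1.86 and 2.27 FPKM in Col-0 seedlings. It had the highest ratio of the 22 genes, 2.30-fold, with a difference of 0.91 ± 0.11 (adjusted p = 0.00011). The row with the symbol ATMYB64 (AT5G10280) is MYB92 in RefSeq, also a suberin regulator, and had 9.61 and 10.12 FPKM in ndx1-4 seedlings, against 5.27 and 6.58 FPKM in Col-0 seedlings (difference 0.66 ± 0.11).

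For all 3 MYB genes that rose, part of the transcript is shared with another gene. Of the 50-base stretches of the MYB9 transcripts, 53.3% also occur in those of the opposite-strand gene AT5G16780, and for MYB95 31.1% occur in the opposite-strand gene AT1G74440. For the ATMYB64 row 7.14% occur in a gene on the same strand, AT5G10278. The library kit does not mark strand, so reads from these pairs over the shared stretch cannot be told apart, and none of the partners is in the table. None of the 13 secondary wall and xylem genes tried was in the table either, and these were not analysed here.

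The NAC genes divided evenly, 2 lower and 2 higher, with differences between -0.39 and 0.63. anac081 (AT5G08790, ATAF2 in RefSeq), a wound- and pathogen-responsive repressor, had 18.29 and 17.66 FPKM in ndx1-4 seedlings, against 23.24 and 24.42 FPKM in Col-0 seedlings (difference -0.39 ± 0.06, adjusted p = 0.000373). ANAC092 (AT5G39610), known as ORE1, a promoter of leaf senescence, had 33.81 and 34.22 FPKM in ndx1-4 seedlings, against 44.18 and 44.79 FPKM in Col-0 seedlings (difference -0.38 ± 0.04, adjusted p = 8.08e-05). Replicates of ANAC092 lay within 0.61 FPKM of each other while the genotypes were 9.96 FPKM apart. For anac081, 7.36% of the 50-base stretches are shared with the opposite-strand gene AT5G08780.

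ANAC056 (AT3G15510, NAC2 in RefSeq), known from seed development, had 9.95 and 10.58 FPKM in ndx1-4 seedlings, against 6.07 and 6.46 FPKM in Col-0 seedlings (difference 0.63 ± 0.08, adjusted p = 0.000174). ANAC083 (AT5G13180), known as VNI2, a repressor of vessel formation and the most abundant of the 4, had 95.56 and 98.19 FPKM in ndx1-4 seedlings, against 80.99 and 76.88 FPKM in Col-0 seedlings (difference 0.29 ± 0.04, adjusted p = 0.000164). In neither gene did the genotypes overlap. ANAC056 changed by 1.64-fold and ANAC083 by 1.23-fold.

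Of the 3 bHLH genes, the 2 that rose encode small atypical bHLH proteins without a DNA-binding basic region, of the group that promotes cell elongation by binding other bHLH proteins. BHLH136 (AT5G39860, PRE1 in RefSeq; chromosome 5, 15957368 to 15958559) had 31.95 and 29.51 FPKM in ndx1-4 seedlings, against 15.17 and 15.54 FPKM in Col-0 seedlings. It was 2.0-fold higher without overlap, with a difference of 0.96 ± 0.06 (adjusted p = 5.32e-06). BHLH134 (AT5G15160, BNQ2 in RefSeq; chromosome 5, 4921243 to 4922812) had 28.19 and 28.01 FPKM in ndx1-4 seedlings, against 16.91 and 17.00 FPKM in Col-0 seedlings, with the closest replicates of the set (difference 0.70 ± 0.05, adjusted p = 1.27e-05). Their coding sequences have 92 and 94 codons, the shortest of the 22.

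bHLH121 (AT3G19860), an activator of the iron deficiency response, had 88.08 and 83.13 FPKM in ndx1-4 seedlings, against 105.30 and 106.78 FPKM in Col-0 seedlings. It fell to 80.7% of the wild-type mean, without overlap (difference -0.31 ± 0.04, adjusted p = 0.000123). Of 17 genes of iron uptake and storage, 2 were listed and both were higher in ndx1-4, as were 43.0% of the table. IRT1, the root iron importer, had 2.1 and 1.59 FPKM in ndx1-4 seedlings, against 0.31 and 0.12 FPKM in Col-0 seedlings (difference 1.23 ± 0.14), and FRO3, a mitochondrial ferric reductase, differed by 0.24 ± 0.05.

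Of 15 genes of shade and auxin response, the setting in which PRE-type bHLH proteins are known, 7 were listed, and 6 fell and 1 rose in ndx1-4, beside 55.9% of the table lower, with a median difference of -0.35, against -0.20 for the table. After rescaling 5 were called lower and 1 higher, and the median was -0.16. The auxin-responsive repressor gene IAA19 was the one that rose, with 28.85 and 33.16 FPKM in ndx1-4 seedlings against 16.95 and 17.12 FPKM in Col-0 seedlings. XTH15, a cell wall enzyme induced by shade, fell by 0.90, and PIL1, a bHLH gene used as a shade marker, fell by 0.77.

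The 2 HB rows were both lower in ndx1-4. AHB1 (chromosome 2, 6982531 to 6983777), a nitric oxide-scavenging hemoglobin induced by low oxygen, had 41.70 and 42.56 FPKM in ndx1-4 seedlings, against 87.26 and 81.66 FPKM in Col-0 seedlings. It stood at 49.9% of the wild-type mean without overlap, and its difference of -0.99 ± 0.04 had the smallest adjusted p of the 22 (7.41e-07). LHB1B1 (chromosome 2, 14524607 to 14525918), among the most abundant transcripts of the table at rank 5 of 1984, had 3394 and 3480 FPKM in ndx1-4 seedlings, against 4155 and 4192 FPKM in Col-0 seedlings (difference -0.28 ± 0.03, adjusted p = 4e-05). Of its 50-base stretches, 13.7% also occur in transcripts of 4 other genes, so part of its reads could belong to those genes.

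The sum over a family depended on how the libraries were scaled. As deposited, the log2 ratio of the summed FPKM was -0.30 for WRKY, -0.02 for MYB, 0.05 for NAC, 0.06 for bHLH and -0.29 for HB, and after rescaling it was -0.10 for WRKY, 0.17 for MYB, 0.24 for NAC, 0.25 for bHLH and -0.10 for HB. As deposited, the 8 WRKY genes summed to 53.97 and 57.50 FPKM in ndx1-4 seedlings, against 68.44 and 68.49 FPKM in Col-0 seedlings, a ratio of 0.814. The 5 MYB genes summed to 48.39 and 47.08 FPKM in ndx1-4 seedlings, against 48.37 and 48.25 FPKM in Col-0 seedlings, which overlap. Without MYB28 the other 4 summed to 24.32 and 24.58 FPKM in ndx1-4 seedlings, against 15.29 and 16.35 FPKM in Col-0 seedlings, a ratio of 1.55.

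For the NAC genes the sums were 157.61 and 160.65 FPKM in ndx1-4 seedlings, against 154.48 and 152.55 FPKM in Col-0 seedlings, and without ANAC083 they were 62.05 and 62.46 FPKM in ndx1-4 seedlings, against 73.49 and 75.67 FPKM in Col-0 seedlings. As deposited, the NAC sum was higher in ndx1-4 with ANAC083 and lower without it. For the bHLH genes the sums were 148.22 and 140.65 FPKM in ndx1-4 seedlings, against 137.38 and 139.32 FPKM in Col-0 seedlings, and without bHLH121 the ratio was 1.82. These sums are descriptions and carry no test.

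**Figure D4:**
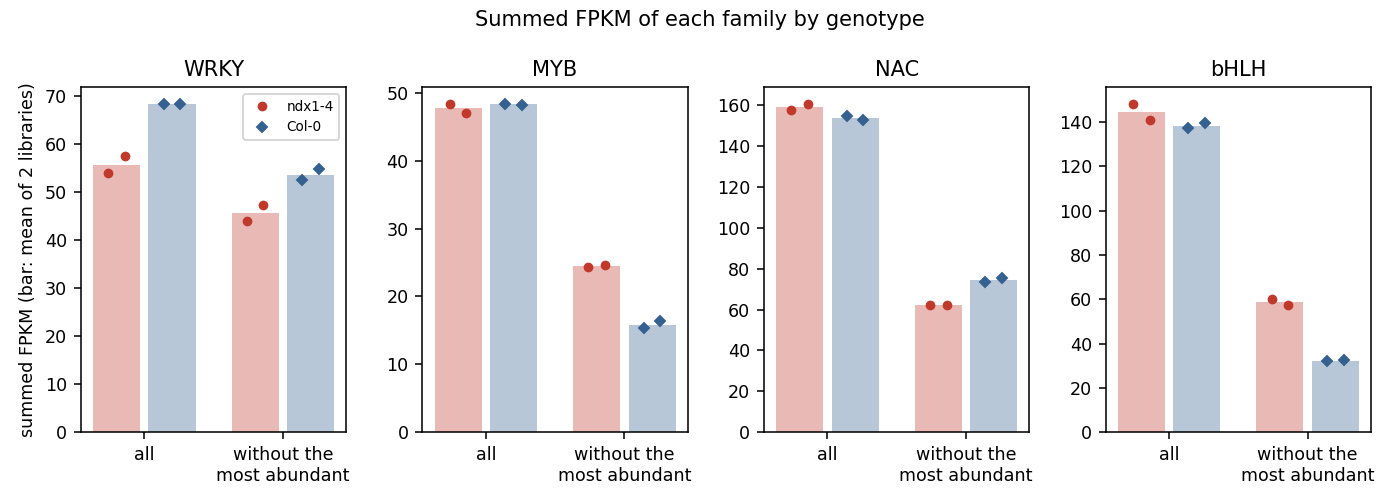
Summed FPKM of the WRKY, MYB, NAC and bHLH genes in ndx1-4 (red, left of each pair) and Col-0 (blue), over all genes of the family and without its most abundant gene, with bars at the mean of 2 libraries and points for each library. As deposited, the MYB sums of the genotypes overlap with all 5 genes and separate without MYB28, and the NAC order turns round without ANAC083.

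A symbol search finds only part of each family. RefSeq names 72 WRKY, 180 MYB, 118 NAC and 124 bHLH genes by product. By such product names, 30 further listed genes of these or the AP2/ERF, bZIP and homeobox families carry no family symbol of the rule. Product names miss genes too, so the 30 are not a full count. For example, the bHLH gene PIL1 and NDX itself, both listed and lower in ndx1-4, are not among the 30. Of these 30, 11 were higher and 19 lower in ndx1-4, or 36.7% and 63.3%, beside 43.0% and 55.9% of the table, and their median difference was -0.27, against -0.29 for the 22 genes and -0.20 for the table. After rescaling 11 were called higher and 12 lower. By product name they included 9 bHLH, 9 homeobox, 6 AP2/ERF, 3 MYB, 2 bZIP and 1 WRKY-annotated gene. The products of both bZIP-annotated genes, AT3G60320 and AT1G24265, also name domains of unknown function, so their place in the family is uncertain. The WRKY-annotated one, AT1G64140, encodes 0 signature heptapeptides.

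Among the bHLH relatives MYC2, the central activator of jasmonate responses, had 7.20 and 8.97 FPKM in ndx1-4 seedlings, against 4.83 and 4.99 FPKM in Col-0 seedlings (difference 0.61 ± 0.11). Of 23 genes of jasmonate signalling and synthesis, 3 were listed, and the other 2, the biosynthetic genes LOX2 and AOC1, were lower, by differences of -0.68 and -0.70. Of 16 genes of ethylene synthesis and signalling 6 were listed, each lower as deposited, with a median difference of -0.24, near the -0.20 of the table, and after rescaling 0 of the 6 were called. Of 19 genes of cold and dehydration response 5 were listed, 2 called higher and 3 lower as deposited, and 2 higher and 1 lower after rescaling. As deposited, 43.0% of the whole table was called higher and 55.9% lower.

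In whole seedlings fewer cells of a type and less RNA per cell cannot be told apart, and markers of some organs moved with genotype. Of 9 seed markers 8 were listed, 7 lower and 1 higher, and those listed summed to 95.6 and 87.2 FPKM in ndx1-4 seedlings, against 1051 and 1093 FPKM in Col-0 seedlings. Of 5 flower markers 3 were listed, all higher, with sums of 46.3 and 44.8 FPKM in ndx1-4 seedlings, against 1.98 and 2.12 FPKM in Col-0 seedlings. Of 7 root markers 2 were listed, both higher, with sums of 401.5 and 412.2 FPKM against 346.8 and 327.8 FPKM in Col-0 seedlings, and of 9 photosynthetic leaf markers 1 was listed, lower, at 4108 and 4372 FPKM against 4699 and 4738 FPKM in Col-0 seedlings, a call that was lost after rescaling. Over the whole table, 43.0% of genes were called higher and 55.9% lower. The part of these organ markers in the results for the 22 genes was not tested.

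The precision of each gene rests on 2 libraries per genotype, and p-values measure only the spread between these libraries. limma drew the spread of each gene toward a trend over all 1984 listed genes, which had been selected on these same libraries. When any 1 library was left out, 1 library stood for its genotype, and the spread came from the other genotype alone. Most genes of this set lost their call in at least 1 such fit. Calls fell over the whole table as well, so a lost call does not single out a gene. No direction turned. The difference moved most for MYB111, between -1.65 and -1.26, and least for BHLH134, between 0.69 and 0.70. After rescaling 18 genes were called, 10 higher and 8 lower, and LHB1B1, anac081, WRKY33 and bHLH121 were not. Of the 1984 listed genes, 869 were then called higher and 612 lower.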

How the data were processed

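Libraries were made with the TruSeq RNA v2 kit and sequenced on a MiSeq as 50-base single-end reads. The authors quantified reads with Salmon (GC bias correction) against Araport11 genes, compared the genotypes with DESeq2, and deposited FPKM per library for genes called at an adjusted p under 0.01. The deposited fold changes and p-values and the transposable element table were not used. Depth per library is unknown, so no counting interval is given. The 1984 genes have identical coordinates in TAIR10 and in the RefSeq annotation of TAIR10.1, used for names and sequence.

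FPKM were tested as log2(FPKM + 1) with limma 3.58.1 (R 4.3.3, variance trend, 4 libraries, no covariate), with Benjamini-Hochberg adjustment over all 1984 genes. A count model could not be used. The log2(FPKM + 1) scale understates changes of low genes. The fit was also run on simulated data in which most genes did not differ. The listed genes were selected to differ, so that run gives no error rate for them. Family symbols were found by a case-insensitive match, and 2 identifiers were left out by the rule. In each family the 4 genes with the largest differences, the most abundant gene and genes that are no transcription factor were to be named; WRKY22, WRKY33, WRKY45 and MAM1 were added after their values were seen. Pathway genes were matched by symbol, up to 3 named per list. Links between a transcription factor and the genes of a list were not tested. The members and lists were chosen with earlier results of these data known. Alternatives were other pseudocounts, a minimum FPKM, no variance trend, rescaling, wider adjustment, a minimum fold, left-out libraries and a replicate block. Rescaling of the pathway lists and the counts of 2-fold changes by ratio and pseudocount were added after seeing the data.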

Additional observations from a re-analysis of the deposited data

How the results depend on the processing

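No gene of the 22 changed direction under any alternative, and NDX kept its direction. Pseudocounts of 0.1 and 10, a minimum mean of 1 FPKM and no variance trend each left 22 genes called. Adjustment over all 38095 annotated genes left 19, without ATMYB64, WRKY25 and WRKY33. Under each of these settings fewer genes of the whole table were called than in the fit used above. The fewest were called under the wider adjustment. The table was selected on this contrast, so none of these counts is a result about the 22 genes. A minimum of 1.5-fold left 14 of the 22 genes (5 lower) and 762 of the table (386 higher, 376 lower). Rescaling left 612 lower genes in the table. Leaving out 1 library, with the spread then taken from the other genotype alone, 9 to 12 of the 22 genes were called, 4 to 6 higher and 3 to 7 lower, beside 773 to 815 of the table, 336 to 378 higher and 422 to 469 lower. Replicate numbers did not pair the libraries (correlation of their deviations 0.02), and with a replicate block 22 genes and 1958 of the table were called.

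The log2 ratio of family sums without the most abundant gene was -0.23 for WRKY, 0.63 for MYB, -0.26 for NAC, 0.86 for bHLH and -1.0 for HB, against -0.30, -0.02, 0.05, 0.06 and -0.29 over all genes. Over all genes of each family, the ratio after rescaling was -0.10 for WRKY, 0.17 for MYB, 0.24 for NAC, 0.25 for bHLH and -0.10 for HB. With 1 library left out, the ratio over all genes ran between -0.34 and -0.25 for WRKY and between -0.037 and 0.00239 for MYB. The MYB ratio changed sign without MYB28 and also without ndx1-4 replicate 2. The NAC ratio changed sign without ANAC083, and with 1 library left out it ran between 0.038 and 0.066. FPKM give no depth, so counting error at low levels, such as MYB111 in ndx1-4, is unknown.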
